A study of Mus musculus with 6 samples.

Results

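Expression of 10 epithelial identity factors was compared between primary mouse mammary epithelial cells and tumor cell lines that lack JNK. The set holds the ETS factors *Elf3*, *Elf5* and *Ehf*, the Grainyhead factors *Grhl1* and *Grhl2*, the zinc finger factors *Ovol1* and *Ovol2*, the splicing factors *Esrp1* and *Esrp2*, and the zinc finger factor *Gata3*. Members were taken by symbol from the table of expression values, and all 10 were found among 37753 entries with values. All 10 also passed the filter for testing, a mean of at least 1 FPKM (a read fragment count scaled to transcript length and library size), as did 12461 entries in all.

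The study asked how loss of JNK, the kinase encoded by *Mapk8* and *Mapk9*, alters the mammary epithelium. MEC are 3 preparations of primary mammary epithelial cells with the genotype WAPCre+ on C57/Bl6J, each pooled from 3 to 5 virgin females aged 10 to 12 weeks, grown on collagen I in medium with serum, EGF and insulin. MEKO are 3 breast tumor cell lines with the genotype Mapk8KO Mapk9KO Cre+ on C57/Bl6J, named 199, 233 and 336, each 1 line and 1 library, grown from tumors of parous mice through 2 passages on collagen I and then on standard dishes. Both groups carry the Wap-Cre transgene, which is active in luminal cells during lactation, and the MEC donors were virgin. Genotype, parity, animal age, tumor origin, medium and time in culture differ together between the groups and cannot be told apart. *Mapk8* was 22.5 ± 2.98 FPKM in MEC and 3.47 ± 2.30 in MEKO (SD, n = 3 each), and *Mapk9* was 22.7 ± 1.53 and 4.61 ± 2.60; which exons the remaining signal covers was not analysed here.

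These factors act at different steps of the epithelial program. Grainyhead factors open chromatin at the enhancers of junction genes, and OVOL factors repress drivers of the mesenchymal state. ESRP proteins bind pre-mRNA and keep epithelial splice forms of receptors and adhesion proteins. In the mammary gland GATA3 maintains luminal cells, ELF5 directs luminal progenitors toward the milk-secreting alveolar fate, and EHF and ELF3 are ETS factors found in many simple epithelia.

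The libraries were checked against cell type markers before the factors were described. The epithelial markers were present in all 6 libraries, with the summed level of 6 genes between 5440 and 8540 FPKM in MEC and between 1300 and 1940 FPKM in the tumor lines. Single markers differed between lines with like sums. *Krt14* was 521, 7.36 and 24.0 FPKM in lines 199, 233 and 336, against 289 to 460 in MEC. *Krt8* was at 8.85%, 20.7% and 17.2% of its MEC mean in those lines, and *Krt18* at 6.65%, 39.9% and 19.8%. Line 199 stood apart from the other 2 lines. Its 8 fibroblast markers summed to 1420 FPKM, against 377 to 544 in MEC and 3.06 and 4.37 in lines 233 and 336. *Col1a1* (600 FPKM, against 44.2 to 74.7 in MEC), *Col1a2* (408, against 28.7 to 39.3) and *Postn* (321, within the 243 to 445 of MEC) made up most of that sum. *Dcn* and *Lum* were lower in line 199 (0.311 and 0.0264 FPKM) than in every MEC preparation. Line 199 also held *Krt5*, a keratin of basal cells, at 608 FPKM, while lines 233 and 336 held 1.33 and 15.3 and MEC held 201 to 435. The 4 endothelial markers summed to at most 13.9 FPKM in any library, the 4 adipocyte markers to at most 0.226 and the 6 leukocyte markers to at most 24.9. The last value is from line 336 and is mostly *Cd68* (23.5 FPKM), while *Ptprc*, the pan-leukocyte marker, was listed at 0 there. Library totals ran from 557991 to 638365 FPKM, and pairs of libraries correlated at 0.944 to 0.966 among the MEC preparations and at 0.856 to 0.903 among the lines. In such bulk cultures, fewer cells of a type and less RNA per cell cannot be told apart.

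Of the 10 factors, *Elf5* and *Gata3* were lower in the tumor lines, and the other 8 were not called. A gene was called with an adjusted p under 0.05 and a log2 fold change beyond 0.75 in limma (Benjamini-Hochberg over all tested entries). The same rule called 9.90% of all tested entries, 7.26% as lower and 2.64% as higher in MEKO, beside 2 lower and 0 higher among the 10. An unadjusted p under 0.05 was found for 4 of the 10 factors, the 2 called ones, *Ehf* and *Grhl1*, against 28.2% of all tested entries. The groups did not overlap for 6 of the 10 factors, against 37.2% of all tested entries. The median log2 fold change of the 10 was -0.30, beside 0.01 over all tested entries, with 8 values below 0 and 2 above. Without line 199, 3 of the 10 were called, beside 1966 of 12434 entries. Leaving out MEC 1, MEC 2, MEC 3 or line 233 left 1 called, which was *Elf5* each time. Beside it, the calls over all entries were 259 of 12422, 301 of 12405, 477 of 12377 and 1029 of 12458.

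**Figure D1:**
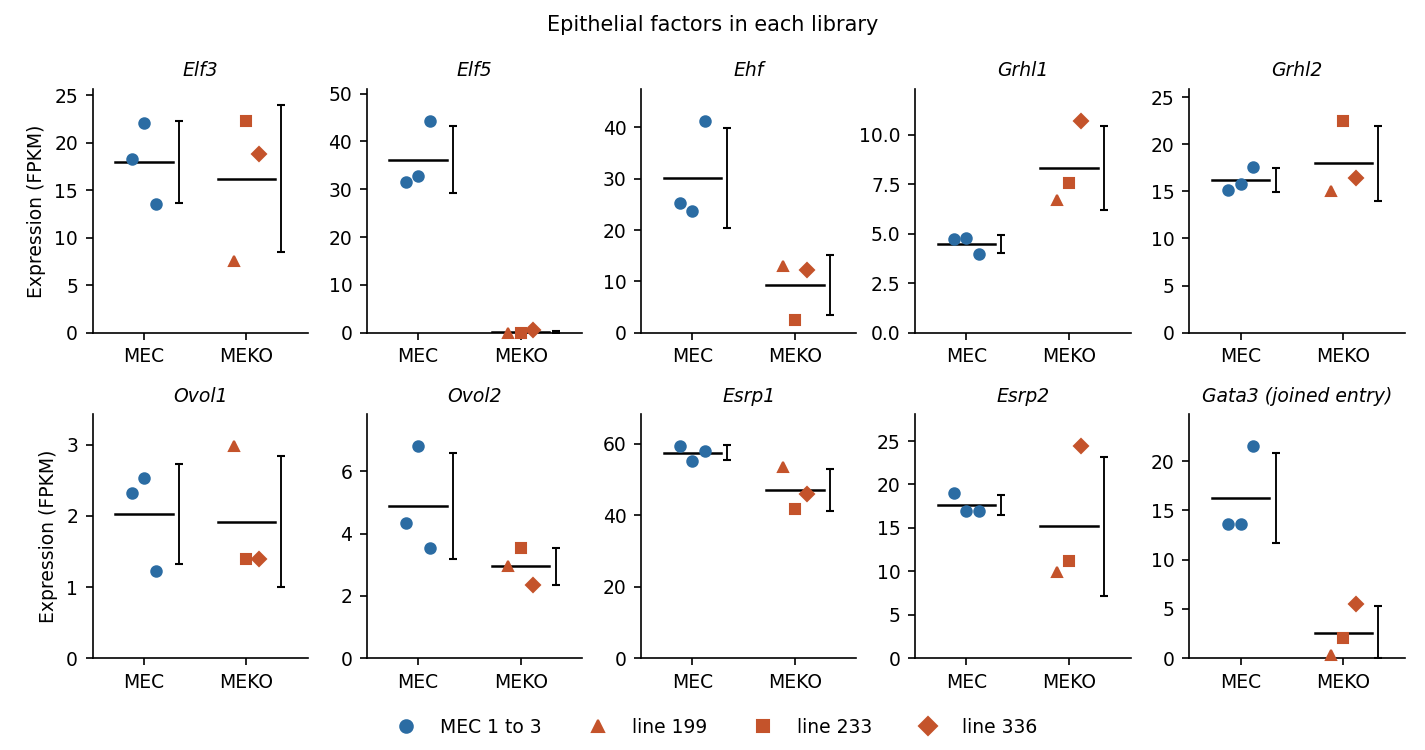
Expression of each factor in FPKM (vertical axis, linear, a separate scale per gene) in the 3 MEC preparations (circles) and in tumor lines 199 (triangle), 233 (square) and 336 (diamond); horizontal bars are group means and error bars are 1 SD, drawn no lower than 0. *Elf5* lies at 31.5 to 44.3 FPKM in MEC and at most 0.461 in the tumor lines, while *Grhl2* and *Elf3* overlap between the groups.

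Promoter sequences are shown for both called factors, because these 2 genes moved down together. A reader can see whether the windows share the exact ETS or GATA string that was searched for. They are RefSeq windows on GRCm38.p6 of 250 bases before to 50 after a transcript start, written along the gene's strand, with matches to the ETS core GGAAG or the GATA core GATAA, on either strand, in capitals. The first *Elf5* window is chr2:103411848-103412147 on the plus strand, the second is chr2:103423818-103424117 on the plus strand, and the *Gata3* window is chr2:9878551-9878850 on the minus strand.
Elf5 window 1: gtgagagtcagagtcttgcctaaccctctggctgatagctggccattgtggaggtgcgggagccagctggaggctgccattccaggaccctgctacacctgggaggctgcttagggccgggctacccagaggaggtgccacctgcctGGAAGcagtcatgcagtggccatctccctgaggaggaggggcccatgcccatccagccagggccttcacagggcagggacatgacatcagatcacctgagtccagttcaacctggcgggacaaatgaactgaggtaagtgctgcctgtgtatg
Elf5 window 2: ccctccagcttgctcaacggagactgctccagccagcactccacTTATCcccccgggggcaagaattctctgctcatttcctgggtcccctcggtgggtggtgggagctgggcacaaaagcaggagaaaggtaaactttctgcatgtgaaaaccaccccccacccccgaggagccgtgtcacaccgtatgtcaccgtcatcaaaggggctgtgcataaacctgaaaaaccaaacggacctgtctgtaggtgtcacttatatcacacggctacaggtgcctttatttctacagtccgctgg
Gata3 window: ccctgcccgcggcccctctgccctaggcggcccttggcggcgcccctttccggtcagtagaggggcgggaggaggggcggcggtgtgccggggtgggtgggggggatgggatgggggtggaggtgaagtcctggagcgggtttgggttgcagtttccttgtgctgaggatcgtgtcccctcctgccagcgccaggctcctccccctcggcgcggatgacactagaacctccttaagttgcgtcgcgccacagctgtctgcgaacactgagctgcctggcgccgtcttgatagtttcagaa
The first *Elf5* window held 1 ETS core, at position -103 from the transcript start. The second held 1 GATA core, at position -206, where it reads TTATC on the strand shown. The *Gata3* window held neither GGAAG nor GATAA on either strand. Other forms of ETS and GATA sites were not searched in any window, so their absence cannot be read from this. An ETS core was found in 71.4% of 32851 RefSeq promoter windows of the same length and a GATA core in 25.4%, so single matches of this kind are common. The Grainyhead motif AACCNGTT and the AP1 motif TGANTCA, which occur in 2.09% and 7.81% of windows, were searched on both strands as well and were in none of the 7 windows of the 5 members that matched the RefSeq table (*Elf3*, *Elf5*, *Grhl1*, *Ovol2* and *Gata3*). The 7 windows ranged from 51.3% GC in the second *Grhl1* window to 75.3% in the first. *Grhl1* window 2 and the *Ovol2* window each held 2 ETS cores.

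Among the ETS factors, *Elf5* (chr2:103411688-103450989, plus strand, GRCm38) was the second most abundant of the 10 in MEC and the least abundant in MEKO. ELF5 is required for alveolar development and switches on milk protein genes. Its level was 31.5, 32.8 and 44.3 FPKM in MEC 1, 2 and 3. In lines 199 and 336 it was 0.0199 and 0.461 FPKM, and in line 233 it was listed at 0. All 3 tumor lines were far below every MEC preparation, and line 336, the highest of them, held 1.27% of the MEC mean. The group means were 36.2 ± 7.05 and 0.160 ± 0.261 FPKM (SD, n = 3 each). On the log2(FPKM + 1) scale the difference was -5.01 (SE 0.24, 95% interval -5.58 to -4.44, limma adjusted p = 0.000645), the 28th largest decrease of 12461. The log2 ratio of the mean FPKM values, which no pseudocount shrinks, was -7.82. The exact permutation test (two-sided) gave p = 0.1, the smallest it can give with 3 against 3 libraries. That test gave the same p for *Ehf*, *Grhl1*, *Ovol2*, *Esrp1* and *Gata3*, of which only *Gata3* was called. *Elf5* was called in 13 of 13 alternative analyses, and no annotated gene overlaps it.

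*Ehf* (chr2:103263433-103303278, minus strand), the nearest tested protein-coding gene upstream of *Elf5* and an ETS factor of the same subfamily, did not pass the test. Its level was 25.2, 23.8 and 41.3 FPKM in MEC and 12.9, 2.46 and 12.3 FPKM in lines 199, 233 and 336. Every tumor line was below every MEC preparation, and line 233 stood well below the other 2 lines, at 8.17% of the MEC mean against 42.8% and 40.7%. The log2 difference was -1.81 (SE 0.57, 95% interval -3.18 to -0.44), with an unadjusted p of 0.0174 and an adjusted p of 0.0997 (limma). It passed the threshold in 1 of 13 alternatives, with sample weights, and its adjusted p ranged from 0.0262 to 0.278.

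A gap of 108410 bases separates *Ehf* from *Elf5*, and the 2 genes are transcribed from opposite strands. The nearest tested protein-coding genes on either side of the pair were not called. *Cat*, which encodes catalase and whose 3′ end lies 2860 bases beyond *Elf5*, was 46.4 ± 8.67 FPKM in MEC and 52.0, 42.5 and 26.7 FPKM in lines 199, 233 and 336. Its difference was -0.23 on the log2 scale (limma adjusted p = 0.614). *Apip*, an enzyme of methionine salvage on the far side of *Ehf*, differed by -0.01 on the log2 scale (limma adjusted p = 0.981), with 13.6 ± 2.00 FPKM in MEC and 14.6, 8.88 and 18.2 FPKM in the lines. The median log2 fold change of the 957 tested entries of chromosome 2, which also carries *Gata3* and *Ovol2*, was 0.14. These neighbours were taken only from genes that passed the filter for testing, so their being measurable was partly fixed by that choice. The state of the locus was not tested.

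*Elf3* (chr1:135253575-135258568, minus strand), an ETS factor of gut, lung and mammary epithelium, overlapped between the groups. It was 18.3, 22.1 and 13.5 FPKM in MEC and 7.57, 22.3 and 18.8 FPKM in lines 199, 233 and 336. Line 199 was the lowest library of the 6, while line 336 lay inside the MEC range and line 233 just above it. Its log2 difference was -0.24 (SE 0.41, 95% interval -1.21 to 0.74, limma adjusted p = 0.735), and without line 199 it was 0.21. The 3 ETS factors thus took 3 different patterns over the same libraries.

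*Gata3* (chr2:9857078-9890034, minus strand) was the other factor called lower. It is listed as a joined entry with 9230102O04Rik, a gene on the same strand that overlaps it by 6500 bases, so the values belong to the pair. The annotated exons of *Gata3* cover 3978 bases and those of 9230102O04Rik cover 935, of which 77 are shared. The entry was 13.6, 13.6 and 21.5 FPKM in MEC and 0.279, 2.00 and 5.52 FPKM in lines 199, 233 and 336. The groups did not overlap, and the lines differed 19.8-fold among themselves, from 1.72% of the MEC mean in line 199 to 34.0% in line 336. The means were 16.2 ± 4.57 and 2.60 ± 2.67 FPKM (SD, n = 3 each). The log2 difference was -2.53 (SE 0.58, 95% interval -3.92 to -1.13, limma adjusted p = 0.0435). The call was lost in 6 of 13 alternatives. Its limma adjusted p was 0.0789 with a pseudocount of 0.1, 0.0768 with no filter on low values, 0.134, 0.128 and 0.158 without MEC 1, 2 and 3, and 0.0919 without line 233. Without line 199 the log2 difference was -1.93 and the call held (limma adjusted p = 0.0281). The nearest tested protein-coding gene beyond *Gata3* was *Taf3*, a subunit of the general transcription factor TFIID. It was 5.05 ± 1.56 FPKM in MEC and 6.50, 5.63 and 4.67 FPKM in the lines, with a log2 difference of 0.15 (limma adjusted p = 0.726). On the other side the nearest such gene, *Celf2*, lay 2347515 bases away and was not called (log2 difference -0.18, limma adjusted p = 0.85).

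**Figure D2:**
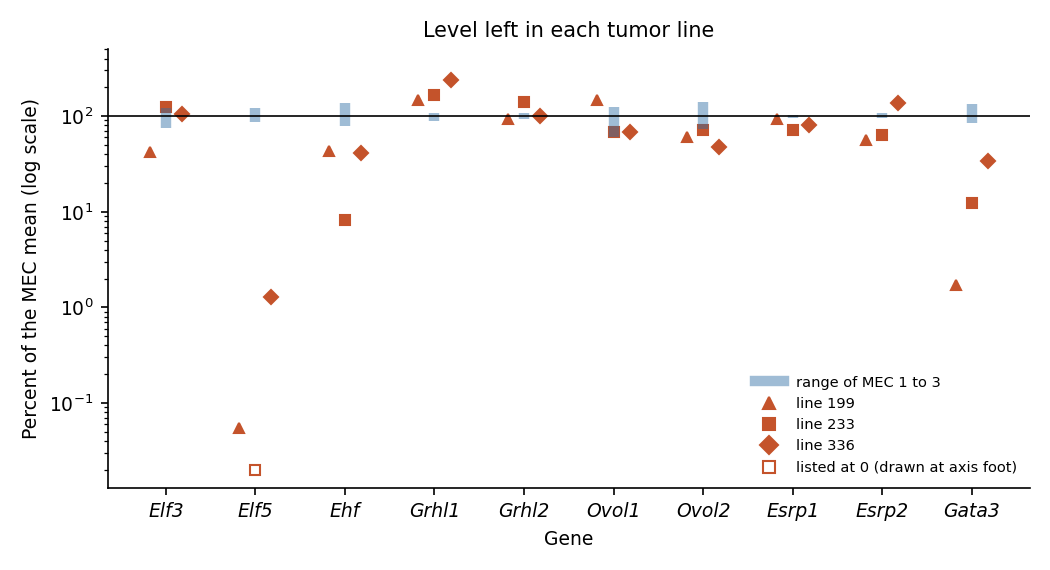
Level of each factor in tumor lines 199 (triangle), 233 (square) and 336 (diamond) as a percentage of the MEC mean (vertical axis, log scale); pale bars span the 3 MEC preparations, and the open square marks *Elf5* in line 233, which is listed at 0 and drawn at the foot of the axis. *Elf5* is at most 1.27% in any line, *Gata3* runs from 1.72% to 34.0%, and *Grhl1* lies above 100% in all 3 lines.

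Both Grainyhead factors were at no less than 92.4% of their MEC mean in every tumor line. *Grhl1* (chr12:24572283-24617391, plus strand), best known for desmosomal genes in skin, was 4.71, 4.80 and 3.95 FPKM in MEC and 6.69, 7.54 and 10.7 FPKM in lines 199, 233 and 336. Each line was above each MEC preparation. The means were 4.49 ± 0.468 and 8.30 ± 2.10 FPKM (SD, n = 3 each), and the log2 difference of 0.74 (SE 0.21, 95% interval 0.23 to 1.25, limma adjusted p = 0.0786) missed both the p and the fold threshold. It was called in 2 of 13 alternatives, after quantile normalization (log2 difference 0.89, limma adjusted p = 0.0499) and without line 199 (0.87, limma adjusted p = 0.0436).

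*Grhl2* (chr15:37233036-37363569, plus strand), which activates *Cdh1* and *Cldn4* in other epithelia, had among the smallest differences of the 10. It was 15.2, 15.8 and 17.6 FPKM in MEC and 15, 22.5 and 16.4 FPKM in lines 199, 233 and 336. Line 233 was the highest library and the other 2 lines lay at the level of MEC. Between the groups the log2 difference was 0.12 (SE 0.19, 95% interval -0.34 to 0.58, limma adjusted p = 0.705). That interval leaves out changes as large as the 0.75 used for calls, in either direction. An antisense gene, Gm16136, overlaps *Grhl2* by 274 bases at 5.01 to 7.31 FPKM in MEC and 3.91, 12.7 and 13.3 FPKM in the lines, and whether the authors' counting used strand is not given in the sources used here.

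Both OVOL factors were among the 3 least abundant factors in MEC. *Ovol1* (chr19:5549136-5560646, minus strand), which restrains proliferation of epidermal progenitors, was 2.32, 2.54 and 1.23 FPKM in MEC and 2.98, 1.39 and 1.39 FPKM in lines 199, 233 and 336. The groups overlapped, with line 199 the highest and MEC 3 the lowest. Its log2 difference was -0.07 (SE 0.32, 95% interval -0.83 to 0.69, limma adjusted p = 0.91). Its sign turned with the scaling, to 0.32 after quantile normalization, and turned also without MEC 1, MEC 2, line 233 or line 336 (0.01 to 0.06). *Ovol2* (chr2:144305175-144332146, minus strand), a repressor of *Zeb1*, was 4.33, 6.80 and 3.55 FPKM in MEC and 2.97, 3.54 and 2.34 FPKM in the lines. The lowest MEC preparation and the highest line were almost equal. The log2 difference was -0.55 (SE 0.26, 95% interval -1.19 to 0.08, limma adjusted p = 0.229).

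*Esrp1* (chr4:11331933-11386783, minus strand) was the most abundant of the 10 factors in both groups. It was 59.3, 55.2 and 57.9 FPKM in MEC and 53.4, 41.7 and 45.9 FPKM in lines 199, 233 and 336. All 3 lines were below all MEC preparations, though line 199 kept 92.9% of the MEC mean and line 233 kept 72.4%. The log2 difference was -0.29 (SE 0.14, 95% interval -0.64 to 0.06, limma adjusted p = 0.241), an interval that also leaves out changes of 0.75. Its paralog *Esrp2* (chr8:106130319-106136974, minus strand), which binds a like sequence, was 19.0, 17.0 and 17.0 FPKM in MEC. In lines 199, 233 and 336 it was 9.95, 11.2 and 24.4 FPKM, so that 2 lines were below MEC and 1 was above. For *Esrp2* the log2 difference was -0.31 (SE 0.33, 95% interval -1.10 to 0.48, limma adjusted p = 0.568). *Esrp2* is overlapped on the other strand by 1810019D21Rik over 1575 bases and by *Nfatc3* over 219, and line 336 was also the highest library for 1810019D21Rik, with 10.7 FPKM against 3.58 to 5.83 in MEC. Whether reads of the pair were separated was not tested.

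**Figure D3:**
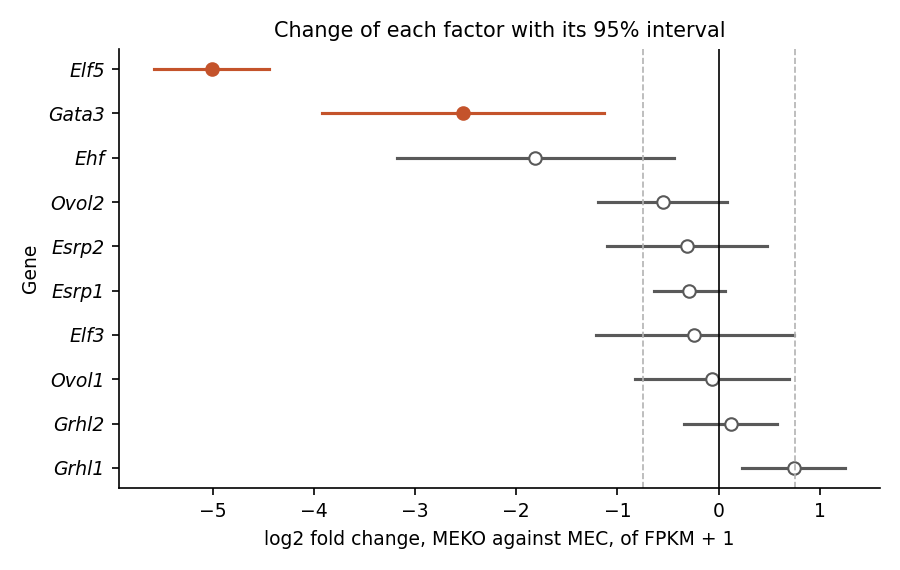
Difference of each factor between MEKO and MEC on the log2(FPKM + 1) scale (horizontal axis), with points for the limma estimate and lines for its 95% interval; filled points are called, and dashed lines mark the fold threshold of 0.75. *Elf5* (-5.01) and *Gata3* (-2.53) are filled, and the interval of *Grhl2* runs from -0.34 to 0.58.

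Per length, the order of the levels differed between the groups. In MEC the order of the mean FPKM was *Esrp1* (57.5), *Elf5* (36.2), *Ehf* (30.1), *Elf3* (18.0), *Esrp2* (17.7), *Gata3* (16.2), *Grhl2* (16.2), *Ovol2* (4.89), *Grhl1* (4.49) and *Ovol1* (2.03). Ranges of neighbours in that order did not overlap between *Esrp1* and *Elf5*, between *Ehf* and *Elf3*, between *Grhl2* and *Ovol2*, and between *Grhl1* and *Ovol1*. In MEKO the order was *Esrp1* (47.0), *Grhl2* (18.0), *Elf3* (16.2), *Esrp2* (15.2), *Ehf* (9.20), *Grhl1* (8.30), *Ovol2* (2.95), *Gata3* (2.60), *Ovol1* (1.92) and *Elf5* (0.160). Here the ranges of neighbours did not overlap between *Esrp1* and *Grhl2*, between *Grhl1* and *Ovol2*, and between *Ovol1* and *Elf5*. Summed over the 10 factors, the level was 193, 194 and 222 FPKM in MEC and 112, 115 and 138 FPKM in lines 199, 233 and 336.

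The tumor lines differed from each other in which factor was low. Line 199 was the lowest line for *Gata3*, *Elf3*, *Esrp2*, *Grhl1* and *Grhl2* and the highest for *Ehf*, *Ovol1* and *Esrp1*. Line 233 was the lowest for *Ehf*, *Esrp1* and *Elf5* and the highest for *Grhl2*, *Elf3* and *Ovol2*. Line 336 was the highest for *Gata3*, *Esrp2*, *Grhl1* and *Elf5* and the lowest for *Ovol2*. Each line is 1 library, so these are values with no test.

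Genes with the pattern most like each factor over the 6 libraries were named by Pearson's r on log2(FPKM + 1), given as a description with no test; for *Elf5* and *Gata3* the r rests mostly on the distance between the groups. Closest to *Elf5* were *Sorbs3*, a vinculin-binding adaptor (r = 0.9991), and the tetraspanin *Tspan13* (r = 0.9990, n = 6). *Tspan13* was 19.4, 23.6 and 25.2 FPKM in MEC and 0.421, 0.273 and 0.869 FPKM in lines 199, 233 and 336. Closest to *Ehf* were *Pex5*, the import receptor of peroxisomes (r = 0.9985), and *App*, the amyloid precursor gene (r = 0.9982). *App* shared the low value of line 233, with 408, 415 and 529 FPKM in MEC and 292, 120 and 274 FPKM in the lines. For *Gata3* they were *Echdc2* (r = 0.9960) and the joined entry of *Shkbp1* and *Sptbn4* (r = 0.9952). The other nearest pairs were *Abhd17a* and *Sdhaf1* for *Elf3*, *Naa40* and *Iws1* for *Grhl1*, *Jrk* and *Zfp809* for *Grhl2*, *Klf7* and *Csf3* for *Ovol1*, *Relb* and *Amigo1* for *Ovol2*, *Hsd11b1* and *Dap* for *Esrp1*, and *Rce1* and *Dnpep* for *Esrp2*, with r between 0.9645 and 0.9995. Among the factors themselves r was highest for *Ehf* with *Esrp1*, at 0.91. It was 0.90 for *Elf5* with *Gata3*, 0.82 for *Elf5* with *Ehf* and 0.80 for *Elf5* with *Esrp1*. Negative values included -0.86 for *Elf5* with *Grhl1* and -0.81 for *Grhl1* with *Esrp1*. The paralogs had r of 0.19 for *Esrp1* with *Esrp2*, and 0.21 for *Grhl1* with *Grhl2*.

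Other members of the same gene families were next examined. Of the 8 tested, 1 was lower and 1 higher, beside 9.90% of all tested entries called in either direction. The median log2 fold change of this list was 0.03. *Elf1*, a broadly expressed ETS factor and the most abundant of the list, was 39.7, 38.9 and 51.6 FPKM in MEC and 13.9, 28.1 and 16.5 FPKM in lines 199, 233 and 336 (log2 difference -1.17, limma adjusted p = 0.0490). *Elf4*, a related ETS factor, was 4.36, 4.19 and 3.87 FPKM in MEC and 9.37, 9.86 and 10.5 FPKM in the lines (1.09, limma adjusted p = 0.0109). *Elf2*, tested in the same list and named after its values were seen, was 23.6 FPKM in MEC and 24.0 in MEKO on average (log2 difference 0.01, limma adjusted p = 0.963). No member of this list was called without MEC 1 or without MEC 2, and 1 was called without MEC 3 or line 199. Calls over all entries were 259 and 301 without MEC 1 and MEC 2, 477 without MEC 3 and 1966 without line 199. *Grhl3*, chosen after its values were seen, was 1.00, 0.75 and 1.32 FPKM in MEC and 3.91, 1.72 and 1.51 FPKM in the lines (log2 difference 0.68, limma adjusted p = 0.228).

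Of the other epithelial transcription factors, 8 were lower and 2 higher of 19 tested, with a median log2 fold change of -1.16. The same rule called 7.26% of all tested entries as lower and 2.64% as higher. *Barx2*, a homeobox factor of glandular epithelium, was 13.5, 15.8 and 27.2 FPKM in MEC and 0.229, 0.0136 and 0.734 FPKM in lines 199, 233 and 336 (log2 difference -3.88, limma adjusted p = 0.00250). *Tbx3*, a factor of mammary placode formation, differed by -2.74 (limma adjusted p = 0.0308). *Foxa1*, a pioneer factor of hormone-sensing luminal cells, differed by -2.49 (limma adjusted p = 0.0198), and *Trps1*, an atypical GATA factor, by -2.33 (limma adjusted p = 0.0201). *Bhlhe40*, the most abundant of the list, was 207 ± 33.3 FPKM in MEC and 57.2 ± 10.9 in MEKO (SD, n = 3 each). The 2 called higher were *Elf4*, which is also in the family list, and *Klf4*, a Kruppel-like factor of barrier epithelia (1.22, limma adjusted p = 0.0487; named after its values were seen). The list's count was 3 without MEC 1 or without MEC 2, beside 259 and 301 of all entries. It was between 7 and 12 without any one of the other libraries, beside 477 to 1966 of all entries.

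Genes that mark junctions and the epithelial surface, many of them targets of Grainyhead factors, were called by limma as lower in 5 of 30 cases and higher in 0, with 13 at an unadjusted p under 0.05 in either direction, beside the 28.2% of all entries. Over all tested entries 7.26% were called lower and 2.64% higher. The junction list had a median log2 fold change of -0.55, with 21 values below 0. *Muc1*, an apical mucin, was 20.0, 20.3 and 17.9 FPKM in MEC and 0.168, 6.69 and 1.10 FPKM in lines 199, 233 and 336 (log2 difference -2.94, limma adjusted p = 0.0400). *Tjp3*, a tight junction scaffold, differed by -2.49 (limma adjusted p = 0.00445), *Tmem30b* by -2.11 (limma adjusted p = 0.0267) and *Epcam*, the epithelial adhesion molecule, by -1.68 (limma adjusted p = 0.0154). The fifth was *Cdh1*, E-cadherin, at 291 ± 30.3 FPKM in MEC and 92.6 ± 18.6 in MEKO (log2 difference -1.66, limma adjusted p = 0.00571). *Cldn4*, the most abundant of the list, was 709, 807 and 661 FPKM in MEC and 327, 346 and 767 FPKM in the lines (log2 difference -0.71, limma adjusted p = 0.232). Expression of *Epcam* and *Cdh1* was therefore lower but present, at no less than 128 and 71.1 FPKM in any line. The count was 2 without any one MEC preparation, beside 259, 301 and 477 of all entries without MEC 1, 2 and 3. It was 11 without line 199, beside 1966 of all entries.

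Genes of alveolar cells and luminal progenitors, among which *Elf5* acts, were called by limma as lower in 7 of 9 tested and higher in 0. All 9 were at an unadjusted limma p under 0.05, and the median log2 fold change was -2.49. Beside these, 7.26% of all tested entries were called lower and 28.2% had an unadjusted limma p under 0.05. *Csn3*, kappa casein, was 1070, 1180 and 1870 FPKM in MEC and 0.0209, 0.339 and 0.282 FPKM in lines 199, 233 and 336 (log2 difference -10.11, limma adjusted p = 4.5e-05). *Kit*, a receptor of luminal progenitors, was 13.0 ± 2.72 FPKM in MEC and was listed at 0 in 2 lines and at 0.129 in line 336 (log2 difference -3.73, limma adjusted p = 0.000927). *Krt19* differed by -5.34 (limma adjusted p = 0.00382) and *Krt8* by -2.72 (limma adjusted p = 0.0106), both keratins of luminal cells. *Krt18*, the most abundant of the list, differed by -2.49 without being called (limma adjusted p = 0.0550). *Csn2* and *Wap*, milk protein genes of pregnancy and lactation, were listed at 0 in all 6 libraries. The count was 4 without MEC 1 or MEC 2, beside 259 and 301 of all entries.

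Hormone-sensing luminal genes were lower in 2 of 5 tested, *Pgr* and *Foxa1*, beside 7.26% of all tested entries. *Pgr*, the progesterone receptor, was 8.06, 8.54 and 10.8 FPKM in MEC and listed at 0 in all 3 lines (limma adjusted p = 0.00094). *Esr1*, the estrogen receptor, was 2.35, 2.50 and 3.08 FPKM in MEC and 1.56, 3.56 and 2.91 FPKM in the lines, with overlapping groups; it was named after its values were seen. *Areg*, the most abundant of the list, was 33.4 FPKM in MEC and 93.4 in MEKO on average, and was not called (limma adjusted p = 0.36). The median log2 fold change of the list was -0.02. The count was 1 with a filter at a mean FPKM of 5 (738 of all entries) and without MEC 1 or MEC 2 (259 and 301). It was 3 with no filter (1058 of all entries) and without line 199 or line 336 (1966 and 954).

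**Figure D4:**
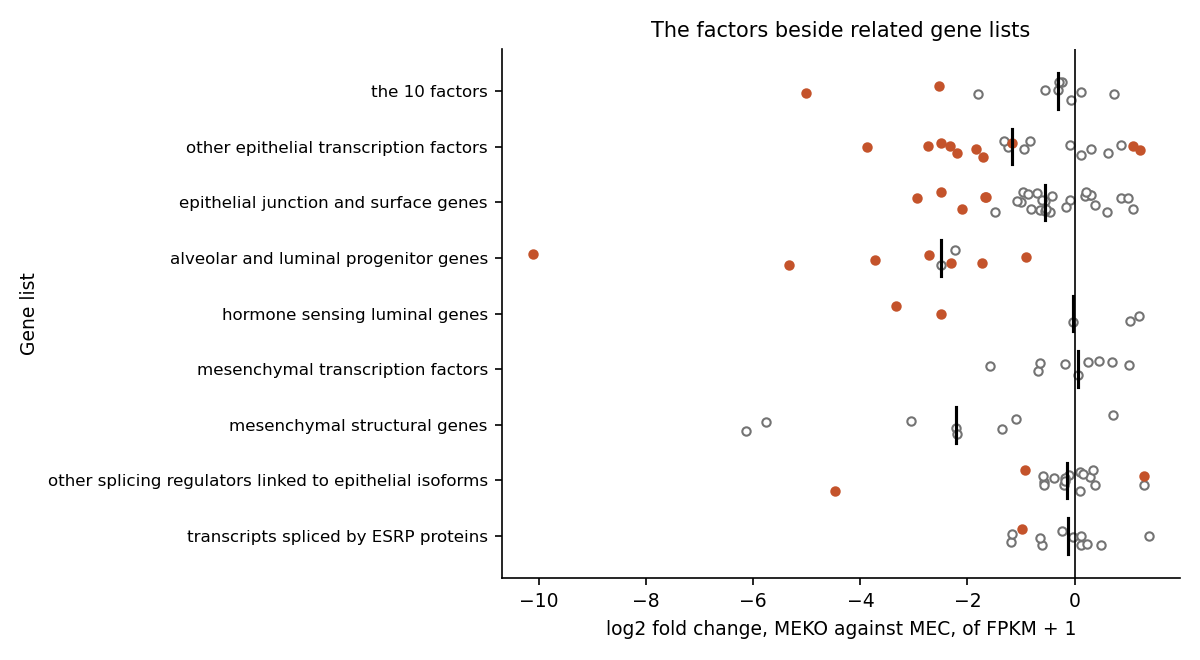
Log2 fold change of MEKO against MEC (horizontal axis, FPKM + 1) for every tested gene of the 10 factors and of the related lists shown (rows). The list of other members of the same gene families is not drawn. Filled points are called, open points are not, and black bars are list medians. The median of the 10 factors is -0.30. Farther from 0 are junction genes (-0.55), other epithelial transcription factors (-1.16), mesenchymal structural genes (-2.21) and alveolar and luminal progenitor genes (-2.49). Nearer 0 are hormone-sensing genes (-0.02), mesenchymal transcription factors (0.06), ESRP-spliced transcripts (-0.13) and other splicing regulators (-0.14).

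Mesenchymal transcription factors, several of which OVOL and Grainyhead factors repress, were called in 0 of 9 cases by limma. Of these, 1 was at an unadjusted limma p under 0.05, and the median log2 fold change was 0.06. Over all tested entries, 9.90% were called and 28.2% had an unadjusted limma p under 0.05. The lines differed widely. The summed level was 100 FPKM in line 199, above the 37.3 to 45.5 FPKM of MEC, and 20.8 and 28.6 FPKM in lines 233 and 336, below it. *Tcf4*, the most abundant of the list, was 14.3, 13.8 and 17.1 FPKM in MEC and 18.7, 4.73 and 8.63 FPKM in lines 199, 233 and 336. *Zeb1*, the target of OVOL2 repression and named after its values were seen, was 1.59, 1.29 and 1.5 FPKM in MEC and 5.89, 0.0950 and 0.356 FPKM in the lines. *Ovol2* itself was 2.97, 3.54 and 2.34 FPKM in those lines, so that line 199 was the highest of the 6 libraries for *Zeb1* and the middle line for *Ovol2*. Without line 199, 2 of the list were called, beside 1966 of 12434 entries. Without line 233, 1 was called, beside 1029 of 12458 entries.

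Mesenchymal structural genes were likewise called in 0 of 8 cases by limma, with 3 at an unadjusted p under 0.05 and a median log2 fold change of -2.21. The shares over all tested entries were again 9.90% and 28.2%. *Acta2*, smooth muscle actin of myoepithelial cells and the most abundant of the list, was 1120, 1450 and 736 FPKM in MEC, 719 in line 199, and 1.13 and 1.29 in lines 233 and 336. *Vim*, vimentin, chosen after its values were seen, was 143, 160 and 86.2 FPKM in MEC and 496, 1.56 and 15 FPKM in the lines. Both genes split the tumor lines in the same way, with line 199 well above the other 2 lines, which were far below MEC. Without line 199, 7 of the 8 were called, beside 1966 of 12434 entries. The summed level of the structural list was 2370 FPKM in line 199, within the 2050 to 3170 of MEC, and 101 and 134 in lines 233 and 336. In line 199, the highest of the 3 lines for both mesenchymal sums, the 10 epithelial factors took low, MEC-like and raised values. *Gata3*, *Elf3* and *Esrp2* were at 1.72%, 42.2% and 56.4% of their MEC means there and *Elf5* at 0.0551%, while *Esrp1* and *Grhl2* were at 92.9% and 92.4%. *Ehf* and *Ovol2* were at 42.8% and 60.6%. *Grhl1* and *Ovol1*, at 149% and 147%, were above every MEC preparation in that line. Which cells held these transcripts was not measured.

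Among other splicing regulators linked to epithelial isoforms, 2 were lower and 1 was higher of 18 tested, and the median log2 fold change was -0.14. Calls over all tested entries were 7.26% lower and 2.64% higher. *Khdrbs3*, an RNA-binding protein of the SAM68 family, was 36.5, 41.1 and 71.9 FPKM in MEC and 1.61, 0.202 and 2.29 FPKM in lines 199, 233 and 336 (log2 difference -4.48, limma adjusted p = 0.00355). *Mbnl2*, a muscleblind splicing factor, differed by -0.92 (limma adjusted p = 0.0454). *Rbm38*, an RNA-binding protein, was 7.54, 9.20 and 8.86 FPKM in MEC and 18.4, 23.3 and 26.4 FPKM in the lines (1.30, limma adjusted p = 0.0113). *Ptbp1*, the most abundant of the list, was 214 FPKM in MEC and 260 in MEKO on average (log2 difference 0.28, limma adjusted p = 0.292). The count was 1 without MEC 1 or MEC 2, beside 259 and 301 of all entries. It was 2 without any one of the other libraries, beside 477 to 1966 of all entries.

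Transcripts whose splicing ESRP proteins control were called in 1 of 12 cases, beside 9.90% of all tested entries. The table gives gene totals, so no splice form of any of them was measured. *Ctnnd1*, p120-catenin, was 162, 182 and 194 FPKM in MEC and 106, 69.3 and 99.2 FPKM in lines 199, 233 and 336 (log2 difference -0.98, limma adjusted p = 0.0303). No gene of the list was called without any one MEC preparation or without line 336, and 2 were called without line 199. Calls over all entries were 259, 301 and 477 without MEC 1, 2 and 3. They were 954 without line 336 and 1966 without line 199. *Cd44*, a hyaluronan receptor and the most abundant of the list, was 237, 259 and 123 FPKM in MEC and 212, 120 and 24.0 FPKM in the lines, with overlapping groups (log2 difference -1.19, limma adjusted p = 0.364). The median log2 fold change of the list was -0.13, beside 0.01 for all tested entries.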

How the data were processed

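RNA-seq values of 3 MEC and 3 MEKO libraries were analysed. The authors trimmed paired-end reads, aligned them to mm10 (GRCm38) with Bowtie2 and TopHat2 2.0.14, and quantified genes with Cufflinks 2.2.1; the deposited table holds these FPKM values, in which the authors' software scaled each gene by its length and each library by its size. The annotation release and the use of strand are not given in the sources used here. Of 37755 entries, 2 hold no values and 466 join the names of several genes. FPKM gives no read numbers, so absolute depth is unknown and no detection floor was computed; depth relative to MEC 1, read from the steps of small values, was between 0.92 and 1.3. The labels give no batch and share no replicate numbers between groups.

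Differences were tested with limma 3.58.1 in R 4.3.3 on log2(FPKM + 1) with a mean-variance trend, for entries with a mean FPKM of at least 1, with Benjamini-Hochberg adjustment over 12461 entries. The fit was tested on simulated data. Each MEC library is a separate pool of mice and each MEKO library a separate line. Single factors were also given an exact permutation test (two-sided), whose smallest p is 0.1. Positions come from GENCODE M21 on GRCm38 and promoters from RefSeq on GRCm38.p6.

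The members and gene lists were chosen with earlier results of these data known, and lists were given no set test. The text names all 10 factors, *Mapk8* and *Mapk9*, from each list the most abundant gene and at most 4 called genes, those that changed most, the 2 entries most like each factor, and neighbouring genes. Neighbours were the nearest tested protein-coding genes on each side. Other names were chosen after their values were seen. Alternatives were a pseudocount of 0.1, no filter, a stricter filter (mean FPKM of 5), quantile normalization, upper-quartile scaling, no trend, sample weights, no fold threshold, and each library left out in turn.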

Additional observations from a re-analysis of the deposited data

How the results depend on the processing

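No paired analysis was possible because the groups share no replicate numbers. The number of entries called, 1234, was 738 with a filter at a mean FPKM of 5 and 1978 with sample weights, and 905 lower calls became 501 and 1378. Quantile normalization moved the median of all entries to 0.10 and the share of higher calls from 26.7% to 37.9% (477 higher and 783 lower, against 329 and 905). Of the 10 factors, 2 were called, 1 with a pseudocount of 0.1 or no filter, and 3 with quantile normalization or sample weights. The family list fell from 2 to 1 with a pseudocount of 0.1, no filter, a filter at 5 or no trend. With sample weights the junction list went from 5 to 10, mesenchymal factors from 0 to 1, mesenchymal structural genes from 0 to 5 and ESRP-spliced transcripts from 1 to 3. The hormone-sensing list went from 2 to 1 with a filter at 5 and to 3 with no filter.

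With 1 library left out in turn, calls ranged from 259 to 1966 over all entries and from 211 to 1398 for lower ones. The range was 1 to 3 for the 10 factors, 0 to 2 for the family list, 2 to 11 for junctions, 3 to 12 for other epithelial factors, 0 to 2 for mesenchymal factors, 0 to 7 for mesenchymal structural genes, 1 to 2 for splicing regulators, 0 to 2 for ESRP-spliced transcripts, 4 to 9 for alveolar genes and 1 to 3 for hormone-sensing genes. With 1 library left out the log2 difference ran from -0.52 to 0.21 for *Elf3*, from -0.04 to 0.24 for *Grhl2* and from -0.31 to 0.06 for *Ovol1*. It turned in sign for *Elf3* without line 199, for *Grhl2* without line 233, and for *Ovol1* without MEC 1, MEC 2, line 233 or line 336 and with quantile normalization (0.32). None of these 3 factors was called in any alternative. The causes were not tested. With 3 libraries a group, an exact test cannot go below 0.1. The number of reads behind a value is not known.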
